A study of Mus musculus with 28 samples.

Results

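Anti-Müllerian hormone (AMH), inhibin and activin are hormones of the TGFβ family made by the somatic cells of ovarian follicles. The 7 genes of this system studied here are *Amh*, the activin and inhibin subunit genes *Inha*, *Inhba* and *Inhbb*, the AMH receptor *Amhr2*, the activin-binding protein *Fst* (follistatin) and the transcription factor *Foxl2*. They were chosen by name, 7 of the 44674 genes in the bulk table, and each was found by symbol in both kinds of data. Ovaries of mice 7 to 9 days old, wild type (WT, C57BL/6J) or Chek2-/- (Chek2KO), were collected 6 h after 0.5 Gy of whole-body gamma rays (IR) or after sham treatment at 0 Gy (nonIR). CHEK2 is the kinase that passes DNA damage signals on to p53 and TAp63 in oocytes. Bulk RNA sequencing covered 24 libraries, 6 for each of WT nonIR, WT IR, Chek2KO nonIR and Chek2KO IR, and single-cell RNA sequencing covered 4 libraries, 1 per condition, in each of which the cells of 4 females were pooled. The single-cell females were 7 days old. The paper describes the bulk females as 1 week old and gives 7 to 9 days for its irradiation experiments in general. Their exact ages are not stated, so age may differ between the 2 kinds of data. The knockout is present in every cell of the animal, so a difference between genotypes can begin in any ovarian cell or outside the ovary, and ovaries of this age hold mainly primordial and small growing follicles.

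Granulosa cells surround the oocyte, and the flat pregranulosa cells of a resting primordial follicle turn into dividing cuboidal cells when the follicle starts to grow. Growing follicles make AMH, which binds the type II receptor AMHR2 and restrains the recruitment of further primordial follicles. The product of *Inha* joins a β subunit, from *Inhba* or *Inhbb*, to form inhibin, which lowers FSH release from the pituitary. Pairs of β subunits form activins, which act through SMAD2 and SMAD3, and follistatin binds activin and keeps it from its receptors. FOXL2 is a forkhead transcription factor that maintains granulosa cell identity.

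The genes lie apart from each other in the genome. On GRCm38 with the GENCODE M21 annotation, *Amh* (ENSMUSG00000035262) is on chromosome 10 from 80805243 to 80807648 on the plus strand with 5 exon blocks, *Amhr2* (ENSMUSG00000023047) on chromosome 15 from 102445367 to 102454633 on the plus strand with 11, and *Inha* (ENSMUSG00000032968) on chromosome 1 from 75507077 to 75510366 on the plus strand with 2. *Inhba* (ENSMUSG00000041324) is on chromosome 13 from 16011851 to 16031621 on the plus strand with 5 exon blocks, and *Inhbb* (ENSMUSG00000037035) on chromosome 1 from 119415465 to 119422248 on the minus strand with 2. *Fst* (ENSMUSG00000021765) is on chromosome 13 from 114452290 to 114458951 on the minus strand with 3 exon blocks, and *Foxl2* (ENSMUSG00000050397) is a gene of 1 exon on chromosome 9 from 98955288 to 98958543 on the plus strand. Antisense genes overlap *Inhba* (B230303A05Rik and Gm48444), *Fst* (Gm47040) and *Foxl2* (Foxl2os). The sources used here do not name the strand setting of the bulk counting, so whether bulk counts of these 3 genes hold reads of their antisense partners could not be checked.

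The 250 bases upstream of the annotated start are shown for the receptor and for both β subunit genes. These 3 windows did not overlap their own genes in the GENCODE annotation. The sequences are from RefSeq (GRCm38.p6), 5′ to 3′ on the gene's strand. Capitals mark AGGTCA, the letters bound by the NR5A nuclear receptors, which was searched on both strands together with GTAAACA (forkhead) and AGATAA, read by GATA factors.
Amhr2, chr15:102445117-102445366, plus strand: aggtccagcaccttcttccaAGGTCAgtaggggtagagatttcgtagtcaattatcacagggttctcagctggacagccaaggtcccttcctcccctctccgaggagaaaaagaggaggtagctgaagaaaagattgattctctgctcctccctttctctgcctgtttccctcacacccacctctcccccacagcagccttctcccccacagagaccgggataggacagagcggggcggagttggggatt
Inhba, chr13:16011601-16011850, plus strand: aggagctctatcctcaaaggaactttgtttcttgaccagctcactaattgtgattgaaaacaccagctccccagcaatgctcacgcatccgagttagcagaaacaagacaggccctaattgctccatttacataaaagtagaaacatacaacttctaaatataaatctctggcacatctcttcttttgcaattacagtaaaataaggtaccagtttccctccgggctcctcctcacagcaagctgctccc
Inhbb, chr1:119422249-119422498, minus strand: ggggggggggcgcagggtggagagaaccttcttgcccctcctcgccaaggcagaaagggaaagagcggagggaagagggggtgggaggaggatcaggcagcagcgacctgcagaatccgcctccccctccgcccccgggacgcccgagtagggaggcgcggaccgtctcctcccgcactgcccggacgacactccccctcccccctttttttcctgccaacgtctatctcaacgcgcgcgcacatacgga
The GC content of these windows was 55.2% for *Amhr2*, 43.2% for *Inhba* and 68.0% for *Inhbb*. Only the *Amhr2* window held one of the motifs, AGGTCA from 230 to 225 bases upstream of the start. Of the other windows searched, that of *Inha* held AGGTCA from 69 to 64 bases upstream of the RefSeq start and that of *Foxl2* held none of the 3. Both of these windows overlapped their own genes in the GENCODE annotation and are not shown. *Amh* and *Fst* had no window and were not searched. Over 32851 windows of the same length, 14.0% held AGGTCA, 3.17% GTAAACA and 9.99% AGATAA. No motifs overlapped each other in the windows described.

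Bulk libraries held 17824920 to 32605519 counts each. *Chek2* itself had 18.5 to 24.6 CPM (counts scaled to 1000000 per library) in WT and 2.88 to 4.53 CPM in Chek2KO libraries, a log2 fold change of -2.58 in nonIR ovaries (adjusted p = 7.45e-15), and granulosa cells had 11.5 and 12.3 CPM of *Chek2* in the WT and 3.40 and 4.24 in the Chek2KO single-cell libraries, so the libraries followed their genotype labels. *Cdkn1a*, a p53 target, rose after IR in WT ovaries (log2 fold change 1.67, adjusted p = 2.48e-09) and had a log2 fold change of 0.31 in Chek2KO ovaries (adjusted p = 0.999). *Ccng1*, also of the p53 pathway, was higher after IR in Chek2KO ovaries. It had 39.1 to 42.5 CPM without and 56.2 to 63.8 CPM with IR, leaving aside replicate 6 (45.3 and 65.6 CPM). The summed level of 10 granulosa markers lay between 2344 and 3378 CPM. Both Chek2KO replicate 6 libraries stood apart for several genes of the set, as described below. Erythroid marker sums reached 10445 CPM in a Chek2KO nonIR library and stayed at or below 926 CPM in WT libraries, and neutrophil marker sums were 1302 and 1333 CPM in 1 WT IR and 1 Chek2KO IR library. *Nnt*, part of which is deleted in C57BL/6J mice, was singled out after its values were seen, with 26.6 to 36.4 CPM in WT and 54.7 to 78.3 CPM in Chek2KO libraries, so strain background and *Chek2* genotype cannot be told apart in any comparison between genotypes.

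All 7 genes were detected in every bulk library. In WT nonIR ovaries the order of levels per kilobase of exon (mean CPM per kb, range over 6 libraries) was *Inha* at 358 (299 to 428), *Amh* at 113 (91.5 to 147), *Amhr2* at 69.2 (57.4 to 82.6), *Inhbb* at 54.1 (35.5 to 68.1), *Fst* at 28.25 (23.8 to 31.8), *Foxl2* at 25.7 (20.25 to 29.3) and *Inhba* at 1.297 (1.12 to 1.66). The ranges of *Amhr2* and *Inhbb* overlapped, as did those of *Fst* and *Foxl2*, and the other neighbours did not overlap. RNA for the inhibin α subunit was thus the highest of the set and RNA for the activin βA subunit by far the lowest, with 94 to 575 counts of *Inhba* per library against 6351 to 20336 of *Inha*.

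Irradiation moved none of the 7 genes past the test in bulk ovaries of either genotype. For *Amh*, the hormone of growing follicles, the lowest, median and highest libraries had 153, 178 and 245 CPM in WT nonIR and 120, 193 and 224 CPM in WT IR ovaries. Those ranges overlap, with 2 of 6 WT IR libraries below all WT nonIR libraries and 1 WT nonIR library above all WT IR libraries, and the log2 fold change was -0.10 (SE 0.34, 95% interval -0.80 to 0.61, edgeR quasi-likelihood adjusted p = 0.975). In Chek2KO ovaries *Amh* ran from 31.2 through 149 to 173 CPM without IR and from 28.1 through 142 to 241 CPM with it (log2 fold change 0.09, adjusted p = 1). With this spread, changes of *Amh* within that interval were not detectable.

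*Inha* had 440, 511 and 631 CPM (lowest, median, highest) in WT nonIR and 429, 483 and 557 CPM in WT IR ovaries (log2 fold change -0.10, SE 0.16, adjusted p = 0.920). The Chek2KO libraries ran from 244 through 431 to 514 CPM without and from 242 through 462 to 489 CPM with IR (0.02, adjusted p = 1). *Inhbb*, the βB subunit, had 151, 231 and 290 CPM in WT nonIR and 194, 214 and 293 CPM in WT IR ovaries (-0.03, SE 0.19, adjusted p = 0.995). The subunits of inhibin B therefore overlapped between irradiated and non-irradiated WT ovaries. In Chek2KO ovaries *Inhbb* ran from 103 through 153 to 209 CPM without and from 101 through 156 to 265 CPM with IR (0.15, adjusted p = 1).

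*Inhba*, the βA subunit, had 7.16, 7.92 and 10.6 CPM in WT nonIR and 5.27, 10.1 and 13.0 CPM in WT IR ovaries (log2 fold change 0.20, SE 0.22, adjusted p = 0.865). Its Chek2KO values were 7.44, 10.6 and 22.3 CPM without and 9.48, 10.5 and 12.1 CPM with IR (-0.21, adjusted p = 1), the highest of them from Chek2KO nonIR replicate 2. This low-abundance gene had the widest relative spread of the set in WT IR and in Chek2KO nonIR ovaries, with means of 9.46 ± 3.25 and 12.4 ± 5.32 CPM (SD, n = 6).

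For the receptor *Amhr2* the WT libraries had 115, 136 and 166 CPM without and 110, 122 and 156 CPM with IR (-0.13, SE 0.12, adjusted p = 0.808), and the Chek2KO libraries had 82.6, 107 and 142 CPM without and 85.5, 109 and 125 CPM with IR (-0.03, adjusted p = 1). *Fst* had 109, 131 and 146 CPM in WT nonIR and 124, 142 and 156 CPM in WT IR ovaries (0.13, SE 0.14, adjusted p = 0.853). In Chek2KO ovaries *Fst* had 85.8, 144 and 172 CPM without and 92.9, 149 and 187 CPM with IR (0.07, adjusted p = 1). Neither the receptor nor the binding protein separated the groups. *Foxl2* had 65.9, 85.9 and 95.4 CPM in WT nonIR, 72.3, 75.4 and 82.0 CPM in WT IR, 58.4, 69.9 and 85.6 CPM in Chek2KO nonIR and 58.1, 73.8 and 89.9 CPM in Chek2KO IR ovaries. Its log2 fold change after IR was -0.13 in WT (SE 0.10, 95% interval -0.33 to 0.07, adjusted p = 0.738) and 0.06 in Chek2KO ovaries (adjusted p = 1).

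**Figure D1:**
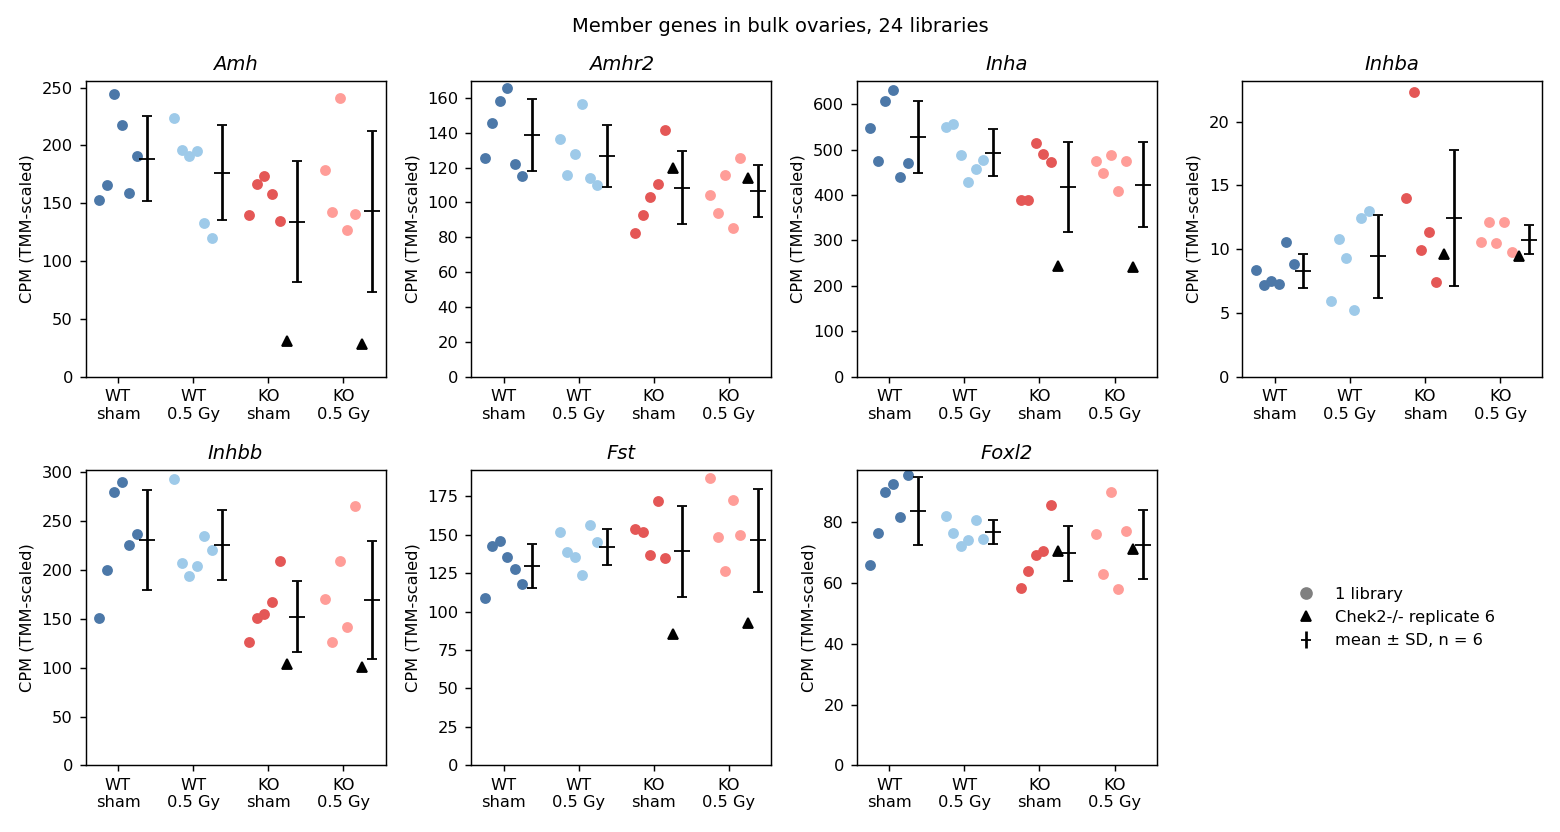
Level of each of the 7 genes in every bulk library (vertical axis, CPM; horizontal axis, the 4 groups of 6 libraries), with the mean and SD of each group and black triangles for Chek2KO replicate 6. The groups overlap for all 7 genes, and both Chek2KO replicate 6 libraries lie lowest for *Amh*, *Inha*, *Inhbb* and *Fst*.

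Across all 26790 genes tested, 2.41% passed the adjusted p limit of 0.05 after IR in WT ovaries, 0.0112% in Chek2KO ovaries and 1.03% for the difference between the responses (the interaction), against 0 of the 7 members in each. At an unadjusted p under 0.05 the counts of members were also 0 of 7 in these 3 comparisons, beside 11.4%, 4.4% and 9.14% of all genes. The ranges of IR and nonIR libraries overlapped for all 7 members in both genotypes, where 2.56% of all genes in WT and 0.149% in Chek2KO did not overlap. The median member log2 fold change was -0.10 in WT and 0.06 in Chek2KO ovaries, where the median of all genes was within 0.01 of 0. Interaction log2 values lay between -0.40 for *Inhba* (adjusted p = 0.807) and 0.19 for *Amh* (adjusted p = 0.979) and *Foxl2* (adjusted p = 0.795). In bulk tissue, fewer cells of a type and less RNA per cell cannot be told apart.

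Between genotypes, 5 of the 7 genes were lower in Chek2KO than in WT nonIR ovaries by point estimate, and none passed the adjusted test, which 5.34% of all genes did. *Inhbb* had a mean of 230 ± 51.4 CPM in WT and 152 ± 36.2 CPM in Chek2KO nonIR ovaries (SD, n = 6), which on the log2 scale is -0.60 with an SE of 0.20 (adjusted p = 0.0726). *Amhr2* had 139 ± 20.7 and 108 ± 20.9 CPM (-0.36, SE 0.12, adjusted p = 0.0839). *Foxl2* followed with -0.26 (adjusted p = 0.112) and *Inha* with -0.34 (adjusted p = 0.202). Median marker sums were lower in Chek2KO nonIR ovaries too for granulosa cells (3145 CPM in WT and 2873 in Chek2KO) and fibroblasts (5008 and 4199). Epithelial (292 and 200), smooth muscle (225 and 166) and oocyte sums (2240 and 2019) were lower as well. So were macrophage (25.1 and 23.2) and neutrophil sums (0.482 and 0.454). Those of dividing cells (1084 and 1123), pericytes (355 and 374) and endothelial cells (391 and 400) went the other way. Erythroid (462 and 641), steroidogenic (350 and 357) and oviduct sums (9.33 and 12.9) did too. The part of the marker sums in the genotype differences was not tested.

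*Amh* had the widest interval of this comparison, at 189 ± 36.7 against 134 ± 52.5 CPM (-0.49, 95% interval -1.20 to 0.21, adjusted p = 0.436). *Inhba* went the other way by estimate, at 8.29 ± 1.31 against 12.4 ± 5.32 CPM (0.58, adjusted p = 0.121), and its log2 fold change was 0.34 without Chek2KO nonIR replicate 2. *Fst* had a log2 fold change of 0.10 (adjusted p = 0.743). The ranges of the genotypes overlapped for all 7 genes, where 3.22% of all genes did not overlap. At an unadjusted p under 0.05 stood 5 of 7 members and 21.6% of all genes, and the median log2 fold change was -0.34 over the members and 0.01 over all genes. These calls differed between fits. DESeq2 called *Amhr2* (adjusted p = 0.0330) and *Inhbb* (adjusted p = 0.0221), and 1 of the edgeR alternatives also called *Inhbb*. Over 8 alternative settings the adjusted p ran from 0.0330 to 0.1004 for *Amhr2* and from 0.0221 to 0.0822 for *Inhbb*. Of these settings, 1 keeps the main fit and adds a 2-fold limit, and 1 was added after seeing the data.

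After IR the same genotypes differed by log2 values of -0.42 for *Inhbb* (adjusted p = 0.194), -0.30 for *Amh* (0.667), -0.25 for *Amhr2* (0.211), -0.22 for *Inha* (0.434), -0.08 for *Foxl2* (0.698), 0.04 for *Fst* (0.901) and 0.18 for *Inhba* (0.696). None of the 7 was called, where 9.84% of all genes were, and 2 of 7 members against 23.6% of all genes had an unadjusted p under 0.05. The ranges of all 7 overlapped, where 5.3% of all genes did not. The irradiated and non-irradiated comparisons use separate libraries, but deviations of same-numbered Chek2KO nonIR and IR libraries correlated (r = 0.058 to 0.66), so they are not independent.

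**Figure D2:**
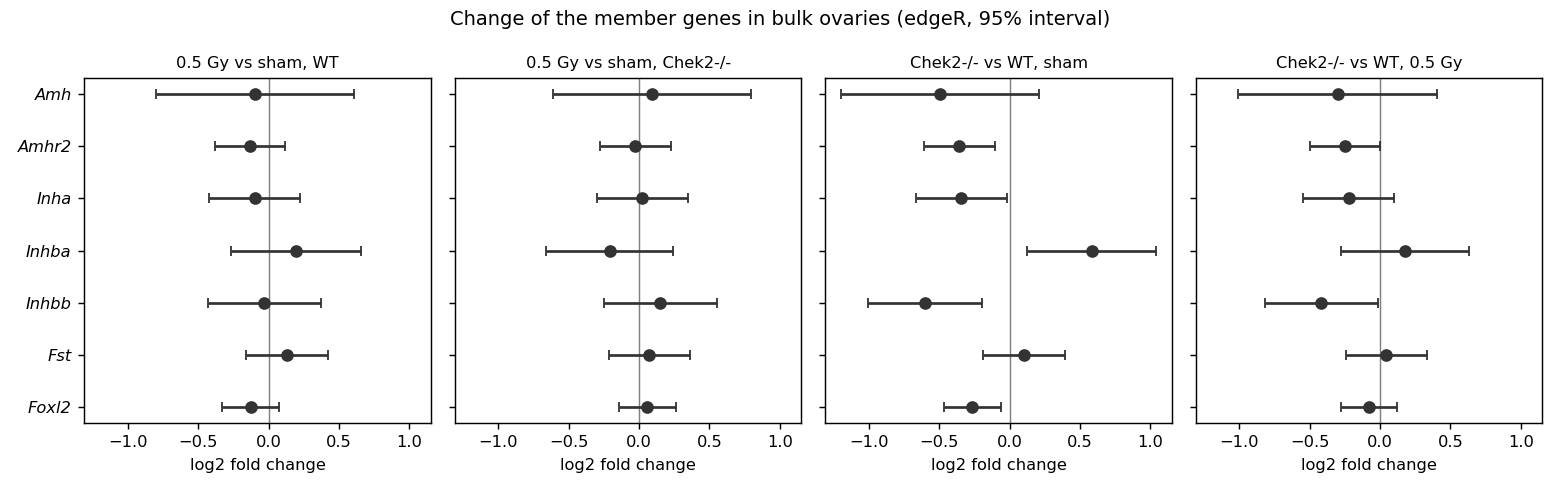
Log2 fold changes of the 7 genes in the bulk comparisons, with 95% intervals from edgeR (horizontal axis, log2 scale; 0 is no difference). The 4 panels are IR against nonIR in each genotype and Chek2KO against WT in each treatment. No member passes the adjusted test in any panel, and in the non-irradiated comparison of genotypes the intervals of *Amhr2*, *Inha*, *Inhbb* and *Foxl2* lie below 0 and that of *Inhba* above 0.

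Both Chek2KO libraries numbered 6, nonIR and IR, had low values. *Amh* was at 31.2 CPM (nonIR) and 28.1 CPM (IR), 4.81- and 5.34-fold below the median of 150 CPM in the other 10 Chek2KO libraries. *Inha* was at 244 and 242 CPM (1.94- and 1.96-fold below), *Fst* at 85.8 and 92.9 CPM (1.76- and 1.62-fold below) and *Inhbb* at 103 and 101 CPM (1.56- and 1.60-fold below). For these 4 genes both libraries lay under all other 22, which held for 8.19% of all genes tested, while *Amhr2*, *Inhba* and *Foxl2* lay within the range of the others. These 4 genes, and *Inhba* too, had higher UMI levels in the dividing and the largest granulosa cluster than in pregranulosa-like cells in the single-cell libraries described later.

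The summed level of the 10 granulosa markers was 2438 and 2344 CPM in these libraries against 2791 to 3290 CPM in the other Chek2KO libraries, with 6 of 10 markers below all other 22 libraries and 2 above, as were 8.19% and 5.96% of all genes. The 8 oocyte markers summed to 1058 and 1188 CPM against 1905 to 2155 CPM, with 3 of 8 below all others. The 6 markers of dividing cells summed to 804 and 841 CPM against 1041 to 1227 CPM. Other marker sums were high in the same libraries. Pericyte markers summed to 629 CPM (nonIR) and 534 CPM (IR), above the highest other Chek2KO library of the same treatment at 416 and 433 CPM. Epithelial markers summed to 470 and 351 CPM, where the others reached 331.5 and 256 CPM. In the nonIR library the endothelial sum was 495 CPM, where the others reached 408 CPM, and the oviduct sum 34.9 CPM, where they reached 17.0 CPM. Fibroblast markers summed to 4868 and 4693 CPM, where the other Chek2KO libraries reached 4237.5 and 4631 CPM and the WT libraries 5768 and 5455 CPM. The macrophage sum was high in the nonIR library (43.0 CPM against at most 26.4) and the steroidogenic sum in the IR library (436 CPM against at most 376). The part of these marker sums in the low values was not tested. Without both libraries, the genotype difference in non-irradiated ovaries was -0.29 for *Amh* (adjusted p = 0.319), -0.23 for *Inha* (0.154), -0.51 for *Inhbb* (0.0791), -0.39 for *Amhr2* (0.0687) and 0.21 for *Fst* (0.164) on the log2 scale. In irradiated ovaries it was -0.092 for *Amh* (adjusted p = 0.787), -0.11 for *Inha* (0.531), -0.31 for *Inhbb* (0.277) and 0.14 for *Fst* (0.357). None of the 7 members was called in any of the 5 comparisons without these libraries. Over all genes, 1009 were called there after IR in WT and 3 after IR in Chek2KO. The interaction called 347 and genotype without IR 1877.

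Of a list of 54 further genes of the pathway (other ligands, receptors, binding proteins, SMADs, SMAD targets and regulators of the members), 53 could be tested in bulk. None was called after IR in WT ovaries, where the smallest p-values belonged to the activin receptor *Acvr1b* (log2 fold change 0.18, adjusted p = 0.0819), the ligand *Bmp6* (0.28, 0.167), *Fstl1* (-0.21, 0.269) and *Tgfbr1* (0.24, 0.295). None was called after IR in Chek2KO ovaries either (*Smad9* 0.37, *Id1* 0.09, *Grem1* 0.40 and *Bmp4* -0.17, each with adjusted p = 1). The interaction called none, and *Id2* came nearest (-0.33, adjusted p = 0.60), followed by *Acvr1b* (-0.14, 0.607), *Tgfbr1* (-0.26, 0.609) and *Acvr2b* (0.22, 0.644).

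Genotype did separate part of that list. In non-irradiated ovaries 5 of 53 genes were higher and 3 lower in Chek2KO, beside 3.12% and 2.22% of all genes. *Sox9*, a transcription factor that drives *Amh* in the testis and is opposed by FOXL2 in the ovary, had 12.3 ± 2.97 CPM in WT and 20.04 ± 5.35 CPM in Chek2KO ovaries (log2 fold change 0.70, adjusted p = 0.0187). The SMAD repressor *Skil* (0.50, adjusted p = 0.00524), the receptor *Tgfbr1* (0.43, 0.0137), the ligand *Bmp4* (0.48, 0.0477) and *Smad5* (0.17, 0.0334) were higher too. The ligands *Bmp7* (-0.65, 0.00745) and *Tgfb3* (-0.58, 0.00767) and the SMAD target *Id3* (-0.39, 0.0456) were lower, so the called genes included ligands in either direction. *Bmp7* ran at 23.5 ± 3.77 CPM in WT and 14.9 ± 2.40 CPM in Chek2KO nonIR ovaries. The calls of *Bmp4* and *Id3* lay near the adjusted p limit of 0.05. Calls of this list, without or with IR, were not checked under the alternative settings or without Chek2KO replicate 6.

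In irradiated ovaries 5 of 53 were higher and 4 lower in Chek2KO, beside 5.52% and 4.32% of all genes. *Sox9* (0.83, adjusted p = 0.00225), *Skil* (0.35, 0.0225), *Bmp4* (0.48, 0.0331), *Smad4* (0.18, 0.0127) and *Smad2* (0.11, 0.0469) were the higher ones. *Acvr1b* (-0.29, 6.90e-04), *Bmp7* (-0.66, 0.00191), *Bmp6* (-0.46, 0.00313) and *Tgfb3* (-0.46, 0.0150) were lower. *Sox9*, *Skil*, *Bmp4*, *Bmp7* and *Tgfb3* were called in both conditions. These use separate libraries but are not independent. Deviations of same-numbered Chek2KO nonIR and IR libraries correlated (r = 0.058 to 0.66), and both conditions share the strain background that cannot be told apart from genotype.

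Single-cell libraries showed which cells held these RNAs. After filters and removal of doublets, 36524 of 40594 deposited barcodes were used, 8697 to 9779 per library, with median depths of 13908 to 17135 UMIs (unique molecular identifiers, 1 per captured RNA molecule) per cell. Pairs of libraries shared 15 to 31 barcodes among the cells used. Cells were clustered without the 7 genes and named from marker genes as granulosa (13381 cells), fibroblast (18684), oocyte (571), epithelial (803), smooth muscle (1210), pericyte (661), endothelial (765), macrophage (294) and erythroid (155). With 1 library per condition there is no replicate check, so no test is given, and intervals printed for these data cover counting error only.

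*Amh*, *Inha*, *Inhbb* and *Fst* were granulosa genes. Of all their UMIs in the cells used, the granulosa class held 97.8% for *Amh*, 96.5% for *Inhbb*, 95.8% for *Inha* and 95.8% for *Fst*. Single-cell levels are CPM of UMIs, the UMIs of a gene scaled to 1000000 UMIs of its class and library. Over the 4 libraries, granulosa cells had a mean of 418 CPM of *Amh* (range 267 to 598), 1428 of *Inha* (1135 to 1693), 292 of *Inhbb* (235 to 317) and 551 of *Fst* (537 to 561). Endothelial cells, which should lack these hormones, had 8.37, 40.1, 8.95 and 10.7 CPM, taken as a background level. That level depended on the removal of doublets, and with doublets kept it was 25.16, 108, 21.68 and 34.04 CPM. *Fst* was the steadiest of these genes between libraries and *Amh* the most variable.

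The receptor *Amhr2* was found in a further cell type. Granulosa cells had 421 CPM of *Amhr2* (412 to 435) and epithelial cells, the surface layer of the ovary, 492 (434 to 548), against 11.4 in endothelial cells. The epithelial class held 7.13% of *Amhr2* UMIs and the granulosa class 87.3%. For the ligand *Amh*, epithelial cells had 12.3, 6.57, 5.83 and 9.77 CPM in WT nonIR, WT IR, Chek2KO nonIR and Chek2KO IR, and endothelial cells had 3.62, 3.93, 10.6 and 15.3 CPM. The epithelial value was the higher in both WT libraries and the lower in both Chek2KO libraries, and each was far under the granulosa range of 267 to 598 CPM. The summed granulosa markers in epithelial cells were 1617 to 1751 CPM, against 5150 to 5340 in granulosa and 607 to 709 in endothelial cells.

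The βA subunit had another distribution from βB. *Inhba* was highest in smooth muscle cells at 69.2 CPM (59.4 to 76.7), followed by granulosa cells at 40.0 (37.1 to 44.4) and fibroblasts at 19.7 (15.3 to 24.1), ranges that did not overlap. The class named smooth muscle passed 6 of 6 smooth muscle markers and also 8 of 8 fibroblast markers. Its fibroblast marker sum was 7553 CPM, against 11087 in fibroblasts, so the class is stromal in part. The few erythroid cells, with 75 UMIs of *Inhba* in all, had 22.9 CPM with a range (10.9 to 41.7) that overlapped those of granulosa cells and fibroblasts. Endothelial cells had 0.580 CPM. By number of UMIs, granulosa cells held 65.6%, fibroblasts 27.7% and smooth muscle cells 5.04% of *Inhba*. *Inhbb* was at 5.27 CPM in smooth muscle cells, under the 8.95 of endothelial cells, so smooth muscle cells held *Inhba* RNA with *Inhbb* at background.

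*Foxl2* reached past the granulosa class as well. It stood at 360 CPM (329 to 385) in granulosa cells, 266 (239 to 295) in smooth muscle cells, 237 (221 to 266) in fibroblasts, 223 (206 to 254) in the few erythroid cells and 11.8 in endothelial cells. The ranges of smooth muscle cells, fibroblasts and erythroid cells overlapped from one to the next. The smooth muscle and erythroid classes also held fibroblast markers, with sums of 7553 and 4629 CPM. Granulosa cells held 60.4% and fibroblasts 34.1% of the UMIs of *Foxl2*. The antisense partner Foxl2os overlaps *Foxl2*, and whether the bulk signal holds antisense reads could not be checked.

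Depth differed between classes, so cells were also thinned to 3000 UMIs each, which left out 40 to 303 shallower cells per library. A UMI was then seen in 39.9% to 60.2% of granulosa cells over the 4 libraries for *Amh*, 83.9% to 88.9% for *Inha*, 37.1% to 46.8% for *Inhbb*, 6.96% to 9.18% for *Inhba*, 68.6% to 71.5% for *Amhr2*, 66.3% to 68.5% for *Fst* and 58.7% to 67.1% for *Foxl2*. Without thinning the granulosa shares were 71.4% to 83.8% for *Amh* and 96.3% to 97.4% for *Inha*. In thinned endothelial cells no more than 1.53% had *Amh*, 13.0% *Inha*, 5.70% *Inhbb*, 0.431% *Inhba*, 6.16% *Amhr2*, 3.45% *Fst* and 3.57% *Foxl2*. Outside the granulosa class, *Amhr2* was seen in 67.2% to 81.7% of thinned epithelial cells, *Inhba* in 15.1% to 19.3% of smooth muscle cells and *Foxl2* in 46.2% to 53.9% of fibroblasts.

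Erythroid cells numbered under 50 per library and held 162 CPM of *Amh*, 596 of *Inha*, 119 of *Inhbb*, 246 of *Fst*, and 157 of *Amhr2* beside summed granulosa markers of 1996 to 3001 CPM. Fibroblast markers there summed to 4629 CPM, with 8 of 8 in over 25% of cells, beside the *Foxl2* and *Inhba* given above. The part of either sum in the erythroid values was not tested. Oocytes held 51.2 of *Amhr2*, 51.5 of *Foxl2* and 37.6 of *Fst* CPM. The granulosa marker sum of the oocyte class was 1025 CPM in WT nonIR and 420, 410 and 634 in WT IR, Chek2KO nonIR and Chek2KO IR. In the WT oocyte class 6 of the 7 genes were at least 1.5-fold lower after IR (12.1% of genes with at least 100 UMIs were), for example *Foxl2* at a ratio of 0.241, while the granulosa marker sum fell alongside. Without IR, the members were also lower in the Chek2KO than in the WT oocyte class. The median ratio there was 0.478 over the 6 members with at least 100 UMIs, beside 1.02 over all such genes. The part of the granulosa marker sum in these ratios was not tested.

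**Figure D3:**
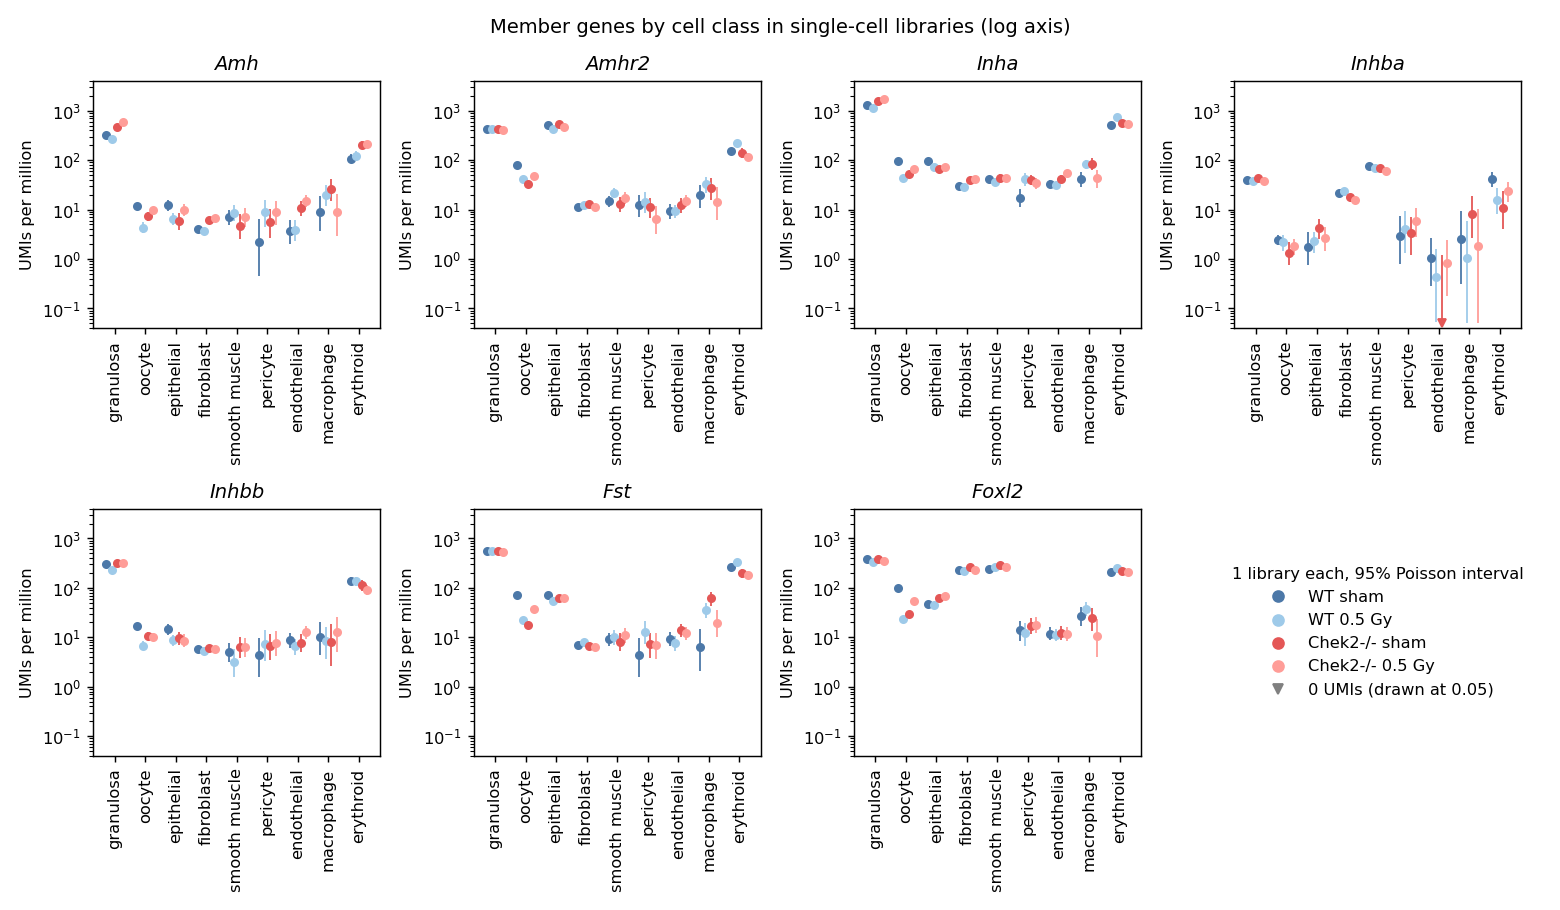
Level of the 7 genes in the named cell classes (CPM of UMIs, log axis; 1 point per library, 4 libraries; a triangle marks a value with 0 UMIs). *Amh*, *Inha*, *Inhbb* and *Fst* lie highest in granulosa cells, *Amhr2* in granulosa and epithelial cells, *Inhba* in smooth muscle cells, and *Foxl2* in granulosa, smooth muscle and fibroblast cells.

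Granulosa cells fell into 4 clusters. A dividing cluster (2573 cells) was found by *Top2a*, *Mki67* and 4 more markers of mitosis. The largest cluster (5813 cells) passed for none of these 6 markers, but its leading genes included *Ung* and *Cdca7*, and its level of the replication gene *Mcm2* was 72.7 CPM against 67.5 in dividing and 11.9 in pregranulosa-like cells, so it held cells with replication genes too. A further cluster of 1313 cells was led by *Akr1c18* and had *Hsd3b1* as a marker, both enzymes of steroid metabolism. The remaining 3682 cells are called pregranulosa-like. This cluster was picked for the highest sum of *Junb*, *Btg2* and *Txnip*, markers of quiescent granulosa cells. All 3 of 3 passed the naming limits there, which the choice made likely. These markers were not confined to it, and in WT nonIR *Junb* was higher in *Akr1c18* cells (362 CPM against 345), though not *Btg2* (641 against 963). The leading genes of the pregranulosa-like cluster included *Mgp*, *Cxcl10*, *Irx3* and the heat shock gene *Hspb1*, and *Junb* and *Btg2* also respond to cell stress. The 7 members were not among the variable genes used to form the clusters, but genes that vary with them were, so the values by cluster are a description.

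The hormone genes were low in the pregranulosa-like cluster. Its median over the 4 libraries was 63.8 CPM of *Amh* (53.3 to 76.0), against 536 in dividing, 528 in largest-cluster and 342 in *Akr1c18* cells. Within each library, dividing cells had 6.49- to 10.6-fold and largest-cluster cells 6.00- to 10.9-fold more *Amh* than pregranulosa-like cells. *Inhbb* had 46.5 CPM in pregranulosa-like (41.7 to 64.1), 387 in dividing and 361 in largest-cluster cells, 5.79- to 9.03-fold higher over both clusters and all libraries. The steps of *Amh* and *Inhbb* were thus of like size.

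For *Inha* the step was smaller, from 536 CPM in pregranulosa-like (503 to 579) to 1690 in dividing and 1727 in largest-cluster cells, 2.59- to 3.89-fold. *Inhba* had 8.25 CPM in pregranulosa-like cells (6.92 to 12.8) and 46.7 and 56.9 in dividing and largest-cluster cells. After thinning to 3000 UMIs, 11.1% to 15.8% of pregranulosa-like cells had a UMI of *Amh*, 10.0% to 13.4% of *Inhbb* and 60.1% to 64.2% of *Inha*. Without thinning, 39.7% to 45.7% of pregranulosa-like cells had a UMI of *Amh*, so the share depends on depth, while at the thinned depth *Inha* was seen in a larger share than *Amh* in every library.

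The receptor went the other way. *Amhr2* had 526 CPM in pregranulosa-like (491 to 553), 419 in largest-cluster, 401 in *Akr1c18* and 342 in dividing cells. In every library, dividing cells had 0.626 to 0.690 and largest-cluster cells 0.747 to 0.853 of the pregranulosa-like level. *Foxl2* had 462 CPM in pregranulosa-like (293 to 475), 372 in largest-cluster, 416 in *Akr1c18* and 283 in dividing cells. Its level in dividing cells was 0.606 to 0.943 of the pregranulosa-like level within a library, below 1 in all 4. In largest-cluster cells it was 0.742 to 1.27 and in *Akr1c18* cells 0.848 to 1.38 of that level, above 1 in the WT IR library and below 1 in the other 3. The pregranulosa-like value of 293 came from WT IR, and the other 3 libraries had 462 to 475. *Fst* had 408 CPM in pregranulosa-like (355 to 458), 651 in dividing, 613 in largest-cluster and 381 in *Akr1c18* cells, and the ratio of *Akr1c18* to pregranulosa-like cells within a library lay on both sides of 1 (0.791 to 1.09).

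**Figure D4:**
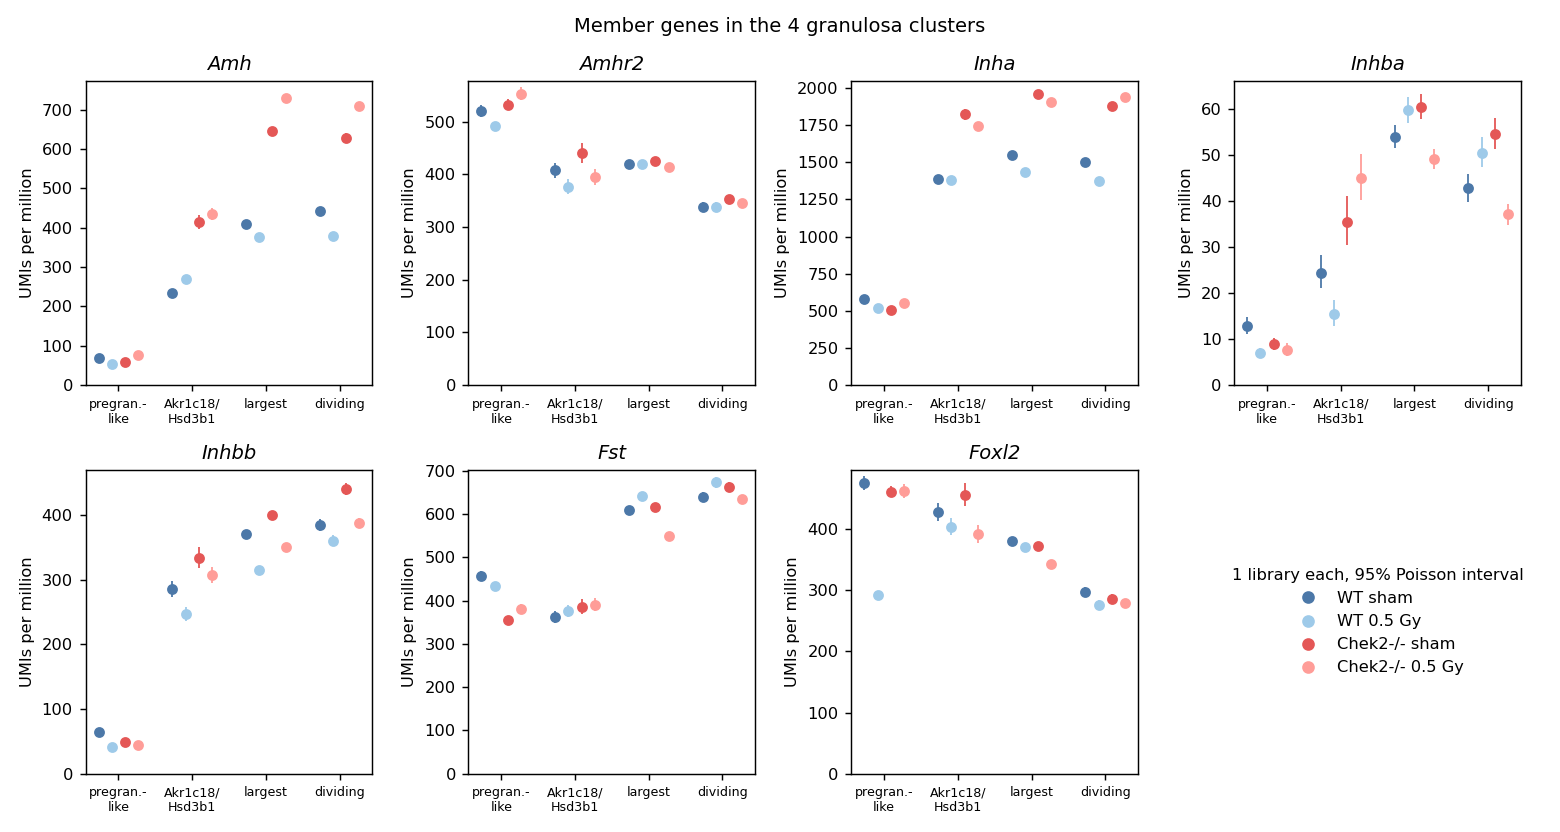
Level of the 7 genes in the 4 granulosa clusters (vertical axis, CPM of UMIs from 0; 1 point per library, colored by condition, with 95% counting intervals). *Amh*, *Inha*, *Inhba* and *Inhbb* are lowest in the pregranulosa-like cluster in every library, and *Amhr2* is highest there.

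Between conditions, *Amh* in granulosa cells had 330 CPM in WT nonIR, 267 in WT IR, 479 in Chek2KO nonIR and 598 in Chek2KO IR. The ratio of IR to nonIR was 0.810 (95% counting interval 0.795 to 0.825) in WT and 1.25 (1.23 to 1.27) in Chek2KO cells. Both are under the 1.5-fold used to name genes here, as for all 7 members, where 4.17% of genes with at least 100 UMIs passed it in WT and 2.7% in Chek2KO granulosa cells. Granulosa cells did respond to IR in the same libraries, since *Cdkn1a* was 15.9-fold higher in WT IR and 2.21-fold higher in Chek2KO IR than in their nonIR libraries.

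*Inhbb* had 303 CPM in WT nonIR, 235 in WT IR, 317 in Chek2KO nonIR and 312 in Chek2KO IR granulosa cells, ratios of 0.775 (0.760 to 0.790) and 0.982. *Inha* had ratios of 0.859 and 1.08, *Inhba* of 0.933 and 0.869, and *Foxl2* of 0.854 and 0.911 in WT and Chek2KO. *Amhr2* (1.00 and 0.947) and *Fst* (0.997 and 0.984) lay nearest to 1. The 4 clusters make up different parts of the class in each library, and pregranulosa-like cells have the lowest *Amh* and *Inhbb*, so ratios within clusters are given beside the class ratios. Pregranulosa-like cells were 24.7% of the class in WT nonIR and 32.8% in WT IR. They were 31.2% in Chek2KO nonIR and 21.2% in Chek2KO IR. The part of these shares in the class ratios was not tested. In largest-cluster cells the *Amh* ratio was 0.920 in WT and 1.13 in Chek2KO, and in dividing cells 0.853 and 1.13. In *Akr1c18* cells the WT ratio of *Amh* went the other way, at 1.15 (1.08 to 1.23), with 1.05 in Chek2KO. For *Inhbb* the WT ratios were 0.936 in dividing, 0.848 in largest-cluster and 0.864 in *Akr1c18* cells, nearer to 1 than over the class. In pregranulosa-like cells the WT ratio of *Inhbb* (0.650) and the *Amh* ratios (0.780 in WT and 1.28 in Chek2KO) were farther from 1 than over the class. With doublets kept, the WT ratio of *Amh* there turned to above 1 and that of *Inhbb* lay nearer to 1, as given below. The Chek2KO ratios of *Inhbb* in dividing, largest-cluster, *Akr1c18* and pregranulosa-like cells were 0.883, 0.878, 0.919 and 0.908, farther from 1 than over the class.

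Between genotypes, granulosa *Amh* was 1.45-fold (1.43 to 1.48) higher in Chek2KO than WT cells without IR and 2.24-fold (2.20 to 2.28) higher with IR, the only member at 1.5-fold or more. None of the 7 was 1.5-fold higher without IR (1.53% of genes were) and 1 of 7 was with IR (2.88% of genes were). Within clusters the ratio of Chek2KO to WT was 1.58 without and 1.94 with IR in largest-cluster cells, 1.42 and 1.88 in dividing cells, 1.78 and 1.62 in *Akr1c18* cells and 0.870 and 1.43 in pregranulosa-like cells. Bulk ovaries had the opposite sign, with log2 fold changes of -0.49 and -0.30 that did not pass the test (-0.29 and -0.092 without both Chek2KO replicate 6 libraries). The bulk value is scaled to the RNA of the whole ovary and also depends on its share of granulosa cells, so these are unlike measures. The higher granulosa value rests on 1 pool of 4 females per condition. In bulk the 6 Chek2KO IR libraries alone ranged from 28.1 to 241 CPM of *Amh*, and from 127 to 241 CPM without replicate 6. *Inha* was 1.18-fold and 1.49-fold higher in Chek2KO granulosa cells without and with IR, and *Inhba* had no common direction. With IR the ratio of Chek2KO to WT for *Inhba* was 2.90 in *Akr1c18* cells (from 316 and 118 UMIs), 1.10 in pregranulosa-like, 0.823 in largest-cluster and 0.734 in dividing cells, and without IR it was 1.45, 0.691, 1.12 and 1.27.

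In pregranulosa-like cells of WT ovaries, 3 of the 7 genes were at least 1.5-fold lower after IR, beside 3.63% of genes there, and 0 of 7 in Chek2KO ovaries, beside 0.687%. *Foxl2* had 475 CPM in WT nonIR and 293 in WT IR, a ratio of 0.616 (counting interval 0.596 to 0.637), against 462 and 462 in the Chek2KO libraries, a ratio of 1.00 (0.969 to 1.03). In the other 3 clusters the WT ratio of *Foxl2* was 0.926 to 0.974. *Inhbb* had a ratio of 0.650 (0.595 to 0.711) and *Inhba* of 0.540 (0.436 to 0.667, from 195 and 167 UMIs) in WT pregranulosa-like cells, against 0.908 and 0.863 in Chek2KO cells. With doublets kept, which changed the cluster to 2396 cells, the WT ratio was 0.505 for *Foxl2*, 0.853 for *Inhbb* and 0.976 for *Inhba*, so the values of the last 2 genes depended on which cells the cluster held.

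The naming markers differed between libraries in the same cluster. *Btg2*, a p53 target, had 963 CPM in WT nonIR, 1437 in WT IR, 1152 in Chek2KO nonIR and 1238 in Chek2KO IR pregranulosa-like cells, and *Junb* 345, 565, 727 and 764. *Txnip* had 623, 725, 581 and 325 CPM in the same order, lowest in Chek2KO IR. The summed 10 granulosa markers were 5460, 5163, 5176 and 5545 CPM and the summed 8 fibroblast markers 293, 350, 293 and 270. The part of a different make-up of the cluster in the *Foxl2* ratio was not tested. In bulk, where all *Foxl2*-bearing cells are pooled, the WT ratio was that of a log2 fold change of -0.13.

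**Figure D5:**
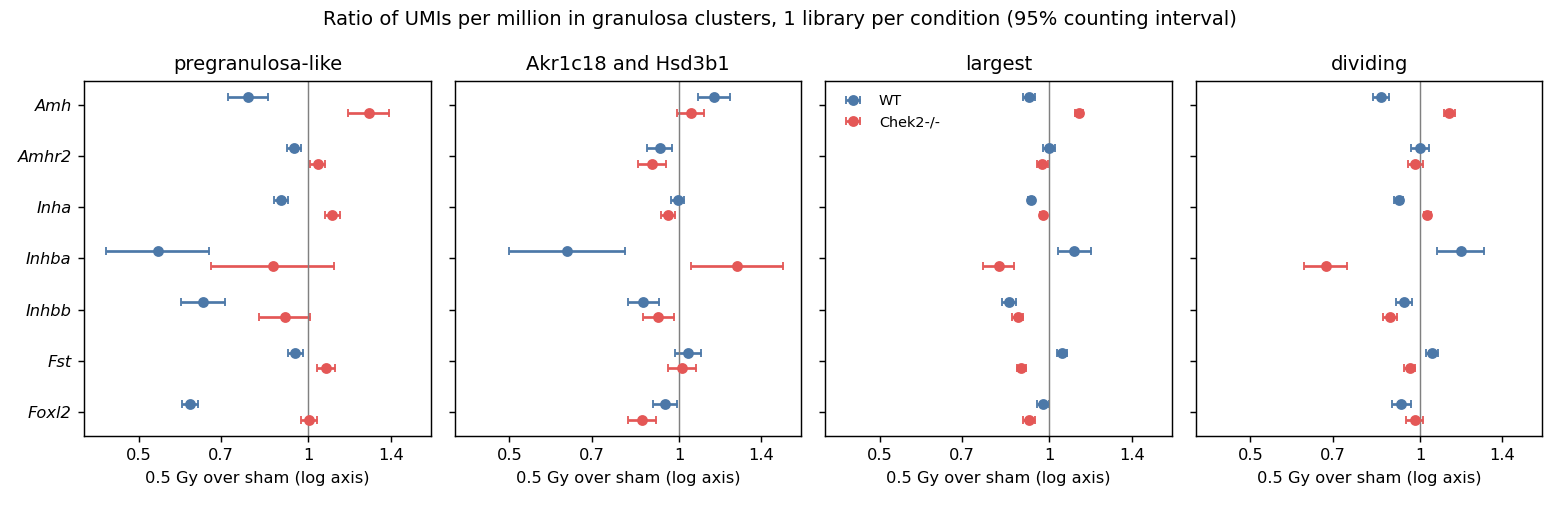
Ratio of IR to nonIR (horizontal axis, log scale) of the 7 genes in the 4 granulosa clusters, for WT and Chek2KO, with 95% counting intervals from 1 library per condition. *Foxl2*, *Inhbb* and *Inhba* are the lowest WT values in pregranulosa-like cells, and *Amh* lies under 1 in WT and above 1 in Chek2KO cells of the pregranulosa-like, largest and dividing clusters (the WT pregranulosa-like ratio was 1.226 with doublets kept).

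Outside granulosa cells, *Amhr2* in epithelial cells had IR ratios of 0.834 in WT and 0.851 in Chek2KO. *Inhba* in smooth muscle cells had ratios of 0.915 and 0.845, and in fibroblasts 1.11 and 0.860. *Foxl2* in fibroblasts had 0.962 and 0.866. All of these are under 1.5-fold in size. In fibroblasts after IR, *Inhba* had a ratio of Chek2KO to WT of 0.636, past the 1.5-fold that 4.05% of genes passed in that direction. In the same comparison 1 other member was at least 1.5-fold higher. In WT epithelial and smooth muscle cells, members other than those given here also passed 1.5-fold after IR.

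The genes most like each member were taken over 28 points, 7 cell classes in 4 libraries, by Pearson's r of log2(CPM + 10) among 17298 genes. Points of a class share its kind of cell and the base composition of its RNA, and points of a library share their depth, so these values are descriptions. *Amh* was most like *Hsd17b1* (r = 0.990), an enzyme that activates estrogen in granulosa cells, *B230209E15Rik* (0.990) and *Inhbb* (0.989). *Inhbb* was most like *Hsd17b1* too (0.994), and *Inha* was most like *Inhbb* (0.987). *Amhr2* was most like *Cst12* (0.991), *Sh2d4a* (0.990) and *Wnt6* (0.988), *Fst* like *Tnni3* (0.983), *Foxl2* like *Tenm4* (0.971) and *Inhba* like *Angptl1* (0.985). Between members, *Amh* had r = 0.981 with *Inha*, 0.909 with *Fst*, 0.624 with its receptor *Amhr2* and 0.418 with *Inhba*.

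Receptors and SMADs of the same pathway had their own distributions. The activin type II receptor *Acvr2b* had 34.5 CPM in oocytes, 26.1 in epithelial, 24.4 in granulosa cells and 8.59 in fibroblasts (means of 4 libraries), and the type I receptor *Acvr1b* had 14.6 in oocytes and 6.35 in granulosa cells. *Bmpr1a*, a type I receptor that AMH can use, had 107 in smooth muscle, 89.6 in epithelial and 67.1 in granulosa cells against 5.89 in endothelial cells. *Smad3*, which carries the activin signal, had 145 in granulosa cells and 27.3 in fibroblasts. The oocyte ligand *Gdf9* had 1194 CPM in oocytes, and the follistatin-like gene *Fstl1* had 683 in smooth muscle and 51.2 in granulosa cells, the reverse of *Fst*.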

How the data were processed

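Bulk libraries were made by the authors from the ovaries of 1 female each (mRNA, 100-base paired-end reads). The submitters' processing notes name FastQC 0.11.9, Trim Galore 0.6.5, Salmon 1.3.0 and MultiQC 1.9, and the methods name the transcripts of Ensembl release 105. The estimated counts per gene that the authors deposited were rounded. Single-cell libraries were made on the Chromium platform and read on mm10 with Cell Ranger (bcl2fastq 2.20.0.422), and the deposited values are UMI counts, whole numbers for each barcode and gene.

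A gene needed 10 counts summed over the 24 libraries, which 26790 of 44674 had. They were scaled by TMM and fitted with a coefficient for each of the 4 groups in edgeR 4.0.16 under R 4.3.3. The quasi-likelihood test was used for 5 comparisons with Benjamini-Hochberg adjustment over all genes, and a gene was called at an adjusted p of at most 0.05. The SE is the fold change divided by the root of its F value. Alternatives were DESeq2 1.42.0, limma-voom (limma 3.58.1), other filters and scalings, a replicate block and leaving out libraries. The sources used here do not say whether libraries of a group came from separate litters, so p-values measure the spread between these libraries.

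Cells with at least 1000 genes, at most 20% mitochondrial and at most 50% ribosomal UMIs were kept (38274 of 40594 barcodes), and Scrublet in scanpy 1.11.5 (Python 3.11.15) removed 4.02% to 5.47% of cells per library as doublets. Cells were clustered on 2000 variable genes without the 7 members (30 components, 15 neighbours, Leiden resolution 0.5). A cluster was named where at least 3 and at least 60% of a marker list were found in at least 25% of its cells and at least 2-fold above the median of the clusters. The pregranulosa-like cluster was the granulosa cluster with the highest summed quiescence markers. UMIs were summed per class and library and divided by the summed UMIs. Counting intervals are 95% exact Poisson intervals for levels and exact binomial intervals for ratios. They cover counting error only. Ratios were counted against 1.5-fold over genes with at least 100 UMIs.

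The 7 members are always named. Of the pathway list the genes called are named, or, where none was, the 4 with the smallest p, and likeness names up to 3 genes a member. The members and lists were chosen with earlier results of these data known. Tests were tried on simulated data beforehand. Columns left unused numbered 0.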

Additional observations from a re-analysis of the deposited data

Results flagged for a closer look

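The spread within groups of 6 bulk libraries was examined for each of the 7 genes. In 2 of 28 groups the lowest library lay far from the others by Dixon's limit, which chance passes in about 1 of 20 groups. *Amh* in Chek2KO nonIR replicate 6 was at 31.23 CPM, with the others from 135.0 to 173.3, and *Inha* in Chek2KO IR replicate 6 was at 241.8 CPM, with the others from 407.6 to 488.6.

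In 14 of 35 single-cell values the ratio of IR to nonIR lay on opposite sides of 1 in WT and Chek2KO granulosa cells with both 95% counting intervals clear of 1. These were 2 of 7 over the whole class, beside 17.0% of all genes with at least 100 UMIs, 4 of 7 in dividing (4.55%), 3 of 7 in largest-cluster (7.64%), 4 of 7 in pregranulosa-like (4.19%) and 1 of 7 in *Akr1c18* cells (3.45%). The class holds the cells of its clusters, so these are not separate cells, and the intervals of genes with many UMIs clear 1 at small differences. Each rests on 1 library per condition, and the difference was not tested. The hormone gene *Amh* had ratios of 0.810 in WT and 1.25 in Chek2KO over all granulosa cells, 0.853 and 1.13 in dividing cells, 0.920 and 1.13 in largest-cluster cells, and 0.780 and 1.28 in pregranulosa-like cells. *Inha* had 0.859 and 1.08 over all granulosa cells, 0.917 and 1.03 in dividing cells, and 0.894 and 1.10 in pregranulosa-like cells. Within the clusters, *Inhba* went the other way from *Amh* in dividing cells (1.18 and 0.680) and largest-cluster cells (1.11 and 0.813) and had 0.633 and 1.27 in *Akr1c18* cells. *Fst* had 1.05 and 0.958 in dividing cells, 1.05 and 0.891 in largest-cluster cells, and 0.948 and 1.08 in pregranulosa-like cells. *Amhr2* had 0.945 and 1.04 in pregranulosa-like cells. The pregranulosa-like ratios depended on the removal of doublets. With doublets kept, the WT ratios there were 1.226 for *Amh*, 1.15 for *Inha* and 1.044 for *Fst*, each turned to above 1, and the Chek2KO ratio of *Inha* was 0.973.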

How the results depend on the processing

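None of the 7 genes was called after IR or for the interaction under any alternative run. With a 2-fold limit added, 288, 1, 167, 211 and 639 genes were called after IR in WT, after IR in Chek2KO, for the interaction, and for genotype without and with IR, and 0 members. DESeq2 called 14, 458 and 2507 genes in the Chek2KO, interaction and nonIR genotype comparisons and 2 members between genotypes without IR. A replicate block called 1 member there (*Inhbb*, adjusted p = 0.0365) and changed no other member call. Replicate numbers were not taken as pairs in the main fit. Deviations of same-numbered libraries from their group means correlated at over 0.1 in 16 of 36 pairs over all groups. Within a genotype this held for 5 of 6 pairs of Chek2KO nonIR and IR (r = 0.058 to 0.66). It held for 3 of 6 pairs of WT nonIR and IR (r = -0.047 to 0.40). The replicate block spans both genotypes, so pairing within a genotype was not tested. Without both Chek2KO replicate 6 libraries, an alternative added after seeing the data, 1009 genes were called after IR in WT. Leaving out 1 library at a time gave 516 to 829, 2 to 5, 221 to 323, 573 to 1800 and 1808 to 3185 genes in the 5 comparisons (573, 675 and 716 without WT nonIR replicates 4, 2 and 3, 807 without Chek2KO nonIR replicate 1, and 5 without WT IR replicate 6), and 0 to 3 members between genotypes without and 0 to 1 with IR. The 3 were *Amhr2*, *Inhbb* and *Foxl2* without Chek2KO nonIR replicate 5. 1 member was called without WT nonIR replicate 1, Chek2KO IR replicate 5 or Chek2KO IR replicate 6, and with IR *Inhbb* without Chek2KO IR replicate 5. Leaving out 1 library reversed 26 of 840 member log2 fold changes, none of them called: *Amh* (-0.17 to 0.0063 after IR in WT, -0.12 to 0.30 in Chek2KO, -0.045 to 0.38 for the interaction), *Inhbb* (-0.12 to 0.054 in WT, -0.023 to 0.26 in Chek2KO), *Fst* (-0.034 to 0.17 in Chek2KO, -0.17 to 0.020 for the interaction, -0.048 to 0.13 between genotypes with IR) and, after IR in Chek2KO, *Amhr2* (-0.10 to 0.066), *Inha* (-0.094 to 0.13), *Inhba* (-0.32 to 0.038) and *Foxl2* (-0.018 to 0.13). In single cells, keeping doublets raised the endothelial means to 25.16 CPM of *Amh*, 108 of *Inha*, 21.68 of *Inhbb*, 34.04 of *Fst*, 26.54 of *Amhr2*, 33.59 of *Foxl2* and 3.366 of *Inhba* and the epithelial mean of *Amh* to 15.77, and gave 401.7 CPM of *Amhr2* and 523.8 of *Fst* in granulosa cells, an IR ratio of *Inha* of 1.099 in Chek2KO granulosa cells, and in a pregranulosa-like cluster of 2396 cells WT ratios of 1.226 for *Amh*, 1.15 for *Inha* and 1.044 for *Fst* and a Chek2KO ratio of 0.973 for *Inha*, all 4 reversed, with WT ratios of 0.904 for *Amhr2*, 0.976 for *Inhba*, 0.853 for *Inhbb* and 0.505 for *Foxl2* and a Chek2KO ratio of 1.149 for *Amh*. With at least 2000 genes per cell, 99.12% of granulosa cells had *Amhr2* and 97.44% *Inha*, and the Chek2KO pregranulosa-like ratio of *Inha* was 1.137. Without cells of shared barcodes, added after seeing the data, the *Foxl2* ratios there were 0.640 in WT and 0.968 in Chek2KO. The causes were not tested, beyond the smaller number of libraries where some were left out. Erythroid values could not be had in settings other than the kept doublets. Depth limits *Inhba* most, at 94 counts in 1 bulk library and 9 UMIs in all endothelial cells.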

Other observations

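Other ligands, receptors and regulators of the pathway also differed between the granulosa clusters. *Wt1*, *Nr5a2*, *Hsd17b1*, *Fshr* and *Kitl* are among the 10 granulosa markers summed above and are given singly here. The ligand *Bmp4* had a median over the 4 libraries of 128 CPM in pregranulosa-like cells (88.7 to 146), against 6.49 in dividing, 19.4 in largest-cluster and 22.6 in *Akr1c18* cells. *Wt1*, a transcription factor of early gonadal somatic cells, had 575 CPM in pregranulosa-like cells and 338, 348 and 283 in the dividing, largest and *Akr1c18* clusters. *Smad3* had 201 CPM in pregranulosa-like cells and 96.4, 149 and 120 in the same 3 clusters. These genes shared with *Amhr2* a highest value in pregranulosa-like cells.

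The nuclear receptor *Nr5a2* had 88.0 CPM in pregranulosa-like cells and 196, 226 and 228 in the dividing, largest and *Akr1c18* clusters, and *Hsd17b1* had 84.4 against 267, 273 and 317. The FSH receptor *Fshr* had 0.196 CPM in pregranulosa-like cells and 3.44, 3.81 and 3.15 in the others, which is low everywhere at this age. *Kitl*, the ligand that granulosa cells present to the oocyte, had 782 CPM in *Akr1c18* cells against 236, 199 and 194 in dividing, largest-cluster and pregranulosa-like cells. *Runx1* was also highest in *Akr1c18* cells, at 179 CPM against 66.6, 65.9 and 84.3. All are descriptions of clusters formed from the same cells, with no test.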
